A study of Mus musculus with 10 samples.

Results

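The CXC chemokines are small secreted or membrane-bound proteins that direct the movement of leukocytes, and 7 of their genes were followed here in RAW264.7 cells, a mouse macrophage line. The members were Cxcl1, Cxcl2, Cxcl3, Cxcl9, Cxcl10, Cxcl11 and Cxcl16, taken by matching the Ensembl identifiers of the deposited count table to gene symbols. They are 7 of the 43432 genes in that table, and 6 of them were among the 14172 genes with enough reads to be tested.

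RNA was sequenced from 5 conditions with 2 libraries each. Cells received the solvent control (0.5% DMSO) alone, the solvent control with lipopolysaccharide (LPS) at 1 µg/mL (DMSO + LPS), or compound 1 at 3.2, 10 or 32 µM with LPS at the same concentration. Compound 1 is the E isomer of 9-keto-hexadec-7-enoic acid, an oxidized fatty acid from a marine cyanobacterial mat. Pretreatment with it or the solvent lasted 1 h, LPS followed, and the RNA is that of the 12 h time point. No library received compound 1 without LPS. All libraries came from 1 cell line and were sequenced together on 1 lane. The labels number the libraries of a condition as biological replicates without naming separate cultures, so p-values measure only the spread between these libraries.

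LPS is sensed by Toll-like receptor 4, which switches on NF-κB and, through type I interferon, a later wave of interferon-stimulated genes. CXCL1, CXCL2 and CXCL3 carry the ELR residues ahead of the CXC motif, bind CXCR2, draw in neutrophils and are textbook NF-κB targets. CXCL9, CXCL10 and CXCL11 lack the ELR residues, bind CXCR3 on activated T cells and NK cells, and are induced by interferons. CXCL16 stands apart as a transmembrane protein that binds CXCR6 and also takes up oxidized lipoproteins, and its ectodomain is released by the proteases ADAM10 and ADAM17.

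Library totals lay between 45966803 and 58976377 counts, and CPM below means read counts scaled to the TMM-adjusted library total. All 8 macrophage markers were detected in every library, with a summed level of 10852 to 11769 CPM in DMSO, 10185 to 10317 in DMSO + LPS, 9482 to 9648 at 3.2 µM, 8374 to 9159 at 10 µM and 7851 to 8276 at 32 µM. The T cell markers Cd3e and Cd8a were at 0 in every library. Replicate 1 at 10 µM carried 451 reads of Epcam and 200 of Cdh1, both epithelial genes, and replicate 1 at 3.2 µM carried 78 and 25. No other library held more than 2 reads of either gene. Replicate 1 at 10 µM also had 43 reads of Col1a1 and 39 of Ly6g, with at most 6 and 5 in any other library. The name "library with epithelial reads" below is thus a label and does not give the origin of the reads. The summed level of the 4 fibroblast or epithelium markers was 15.1 CPM in replicate 1 at 10 µM, 2.46 CPM in replicate 1 at 3.2 µM and at most 0.229 CPM elsewhere. Replicate 2 at 32 µM stood apart in the share of reads on Gm42418, a gene that overlaps ribosomal RNA sequence, with 2.46% against at most 0.207% in the others. Calls that rest on these 3 libraries were also made with each left out in turn, for the lists of other genes as a choice made after seeing the data.

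Of the 7 genes, 6 lie on mouse chromosome 5 and Cxcl16 lies on chromosome 11 (GRCm38, GENCODE M21). On the plus strand were Cxcl3 (ENSMUSG00000029379, chr5:90786103-90789600), Cxcl1 (ENSMUSG00000029380, chr5:90891241-90893115) and Cxcl2 (ENSMUSG00000058427, chr5:90903871-90905938). On the minus strand were Cxcl9 (ENSMUSG00000029417, chr5:92321347-92328079), Cxcl10 (ENSMUSG00000034855, chr5:92346638-92348889) and Cxcl11 (ENSMUSG00000060183, chr5:92359544-92365485). Cxcl16 (ENSMUSG00000018920, chr11:70453983-70459984) is also on the minus strand. The receptor groups thus map to separate stretches of chromosome 5. GENCODE lists Cxcl11 as a polymorphic pseudogene in the reference strain and the other members as protein coding. Cxcl10 and Cxcl11 lie within Art3 on the opposite strand, which had at most 12 counts in any library. Cxcl16 overlaps Zmynd15 on the opposite strand over 552 nt, and Zmynd15 had up to 872 counts. Whether the counting used the strand is not given in the sources used here.

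RefSeq promoter windows (GRCm38.p6, 250 bases before to 50 after the start site) were found for 5 members, Cxcl1, Cxcl2, Cxcl3, Cxcl9 and Cxcl10. The set of windows used here held none for Cxcl11 or Cxcl16. The 250 bases before the start site are printed for Cxcl2 and Cxcl3, which had the largest fold changes of the members with LPS, and for Cxcl10, the interferon-inducible member with the most reads. Each is given 5′ to 3′ on the strand of the gene, and capitals mark the NF-κB consensus and, in Cxcl10, the ISRE core, the element that interferon-activated STAT and IRF complexes bind. The window of Cxcl2 is chr5:90903649-90903898 on the plus strand, that of Cxcl3 is chr5:90785851-90786100 on the plus strand, and that of Cxcl10 is chr5:92348890-92349139 on the minus strand. The RefSeq start site of Cxcl2 lies after the start of the GENCODE gene, so the last bases of its window fall within that gene.
Cxcl2: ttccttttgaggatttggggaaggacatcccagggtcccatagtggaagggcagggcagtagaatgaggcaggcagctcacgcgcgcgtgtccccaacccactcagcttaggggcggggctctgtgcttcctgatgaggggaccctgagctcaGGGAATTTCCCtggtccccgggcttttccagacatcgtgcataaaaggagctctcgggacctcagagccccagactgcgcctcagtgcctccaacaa
Cxcl3: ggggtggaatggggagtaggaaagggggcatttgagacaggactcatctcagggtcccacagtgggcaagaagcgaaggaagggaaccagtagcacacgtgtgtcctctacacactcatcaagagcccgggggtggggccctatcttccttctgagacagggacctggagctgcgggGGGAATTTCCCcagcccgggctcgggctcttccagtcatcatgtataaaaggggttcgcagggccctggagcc
Cxcl10: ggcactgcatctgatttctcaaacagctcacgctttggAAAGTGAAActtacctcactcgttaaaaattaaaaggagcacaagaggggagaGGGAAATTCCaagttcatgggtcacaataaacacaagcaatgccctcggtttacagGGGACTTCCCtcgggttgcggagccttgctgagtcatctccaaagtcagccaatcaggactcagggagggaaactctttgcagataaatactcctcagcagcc

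The 3 ELR genes shared 1 feature. Cxcl1, Cxcl2 and Cxcl3 each held the same string of 11 bases, GGGAATTTCCC, which matches the NF-κB consensus on both strands. Counted from the start site, its first base lay at −71 in Cxcl1, −97 in Cxcl2 and −73 in Cxcl3. The window of Cxcl10 held 2 other matches, GGGAAATTCC from −159 and GGGACTTCCC from −103. No match was found in the window of Cxcl9. Over all 32851 windows of this length, 4.51% held a match on either strand.
The ISRE core, AAANNGAAA on either strand, was found in the window of Cxcl10 alone, from −212 to −204, and in 10.6% of all windows. AP-1 (TGANTCA) was matched in Cxcl10 from −74 and in Cxcl9 at +32, and in 7.81% of all windows. The core of the antioxidant response element (TGACNNNGC), bound by Nrf2, was matched in Cxcl10 on the reverse strand from −76 to −68, overlapping the AP-1 match there, and in 12.4% of all windows. The GAS element (TTCNNNGAA) was in none of the 5 windows and in 8.30% of all windows, and TATAAA on the given strand was in Cxcl3 and Cxcl9 and in 8.32%. A match is a string of letters and not a binding site.

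**Figure D1:**
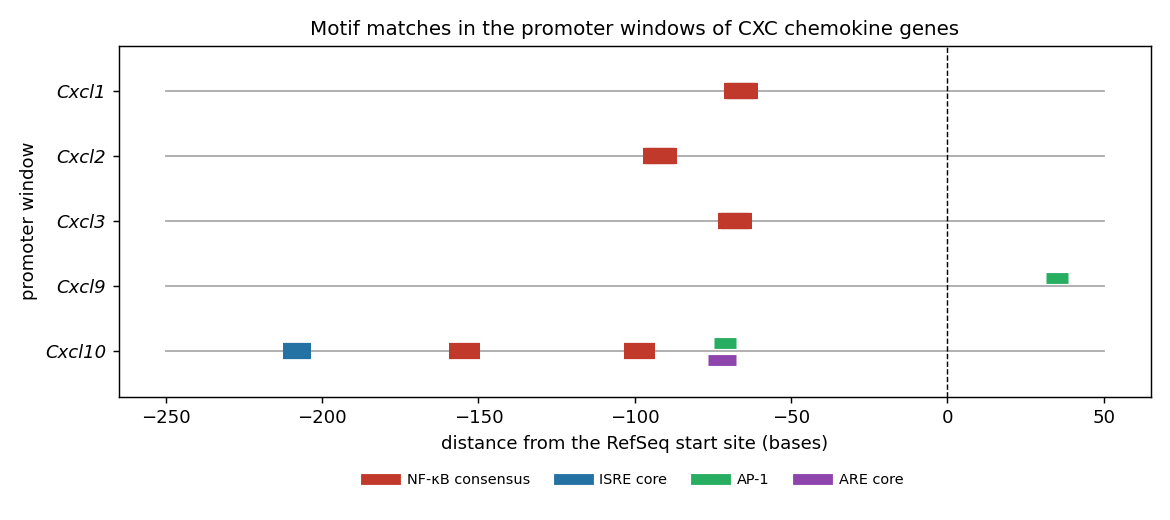
Motif matches in the RefSeq promoter windows of 5 CXC chemokine genes, with the distance from the start site in bases on the horizontal axis and 1 gene a line. The NF-κB consensus is matched once in Cxcl1, Cxcl2 and Cxcl3 and at 2 places in Cxcl10, and the ISRE core is matched in Cxcl10 alone.

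Without LPS, Cxcl16 was the dominant CXC transcript of these cells, and with LPS it was Cxcl2. Levels of different genes were compared per length as TPM, which divides the reads by the length of the union of exons. In DMSO, Cxcl16 stood at 176 and 168 TPM, ahead of Cxcl10 at 7.65 and 7.55 TPM and Cxcl2 at 2.86 and 1.95 TPM. Cxcl16 made up 94.3% and 94.6% of the summed TPM of the 7 members, so the other 6 genes together held the small remainder in both libraries.
In DMSO + LPS, Cxcl2 stood at 1989 and 2007 TPM, Cxcl16 at 110.3 and 115 TPM, Cxcl10 at 92.6 and 92.6 TPM and Cxcl3 at 28.1 and 30.5 TPM. Cxcl11 followed at 3.28 and 2.67 TPM, Cxcl9 at 0.339 and 0.255 TPM, and Cxcl1 at 0.0287 and 0 TPM. Libraries of neighbors in this order did not overlap. Cxcl2 now held 89.4% and 89.3% of the summed TPM. At 32 µM with LPS the share of Cxcl2 was 91.8% and 92.2%, that of Cxcl3 was 3.34% and 3.64% against 1.26% and 1.36% in DMSO + LPS, and that of Cxcl10 was 0.855% and 0.746% against 4.17% and 4.12%. At this dose Cxcl3 stood above Cxcl10 in both libraries, the reverse of their order in DMSO + LPS.

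With LPS alone, 5 of the 6 tested members were higher than in DMSO and 0 were lower, by edgeR's quasi-likelihood test at a change of at least 1.5-fold and a Benjamini-Hochberg adjusted p below 0.05 over all genes tested. These criteria define a call throughout, except in the linear contrast over doses given below, which needs the adjusted p alone. Over all genes, 14.6% were called higher and 13.6% lower. Cxcl2, Cxcl3, Cxcl9, Cxcl10 and Cxcl11 were the 5 called, and Cxcl16 was not. Cxcl9 passed the filter on low counts only through DMSO + LPS, and Cxcl3 and Cxcl11, with at most 8 reads in a DMSO library, only through the LPS conditions. Those 3 had to differ from DMSO, so the count is a description and is not read against the share of all genes. Without either DMSO library it was 4. Scaling by library size alone shifted the median of all genes by −0.20 on the log2 scale and moved the split over all genes from 2068 higher of 3989 called to 1582 higher of 4510, while the same number of members, 5, was called. The smallest p of an exact permutation test between 2 and 2 libraries is 0.333, so each call rests on the spread pooled over genes and conditions.

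Compound 1 at 32 µM with LPS was set against DMSO + LPS to ask what the compound changed in LPS-treated cells. Cxcl3 was called higher, and Cxcl10 and Cxcl11 were called lower. That is 1 of 6 tested members higher and 2 lower, where over all genes 1.26% were called higher and 2.91% lower. Cxcl2, Cxcl9 and Cxcl16 were not called. At 10 µM, 1 member, Cxcl3, was called higher and 1, Cxcl10, lower, against 0.282% and 0.579% over all genes. At 3.2 µM, 0 members were called, as were 0 of all genes tested (0% higher and 0% lower) by edgeR. At an unadjusted p below 0.05 that comparison gave 2 members, Cxcl3 and Cxcl9, and 601 of the 14172 genes tested. Cxcl9 passed the filter on low counts only through DMSO + LPS, so its p is partly set by that filter. The 2 are therefore given as a description. At this dose DESeq2's Wald test called 0 members and 8 genes. The 3 comparisons share the DMSO + LPS libraries.

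**Figure D2:**
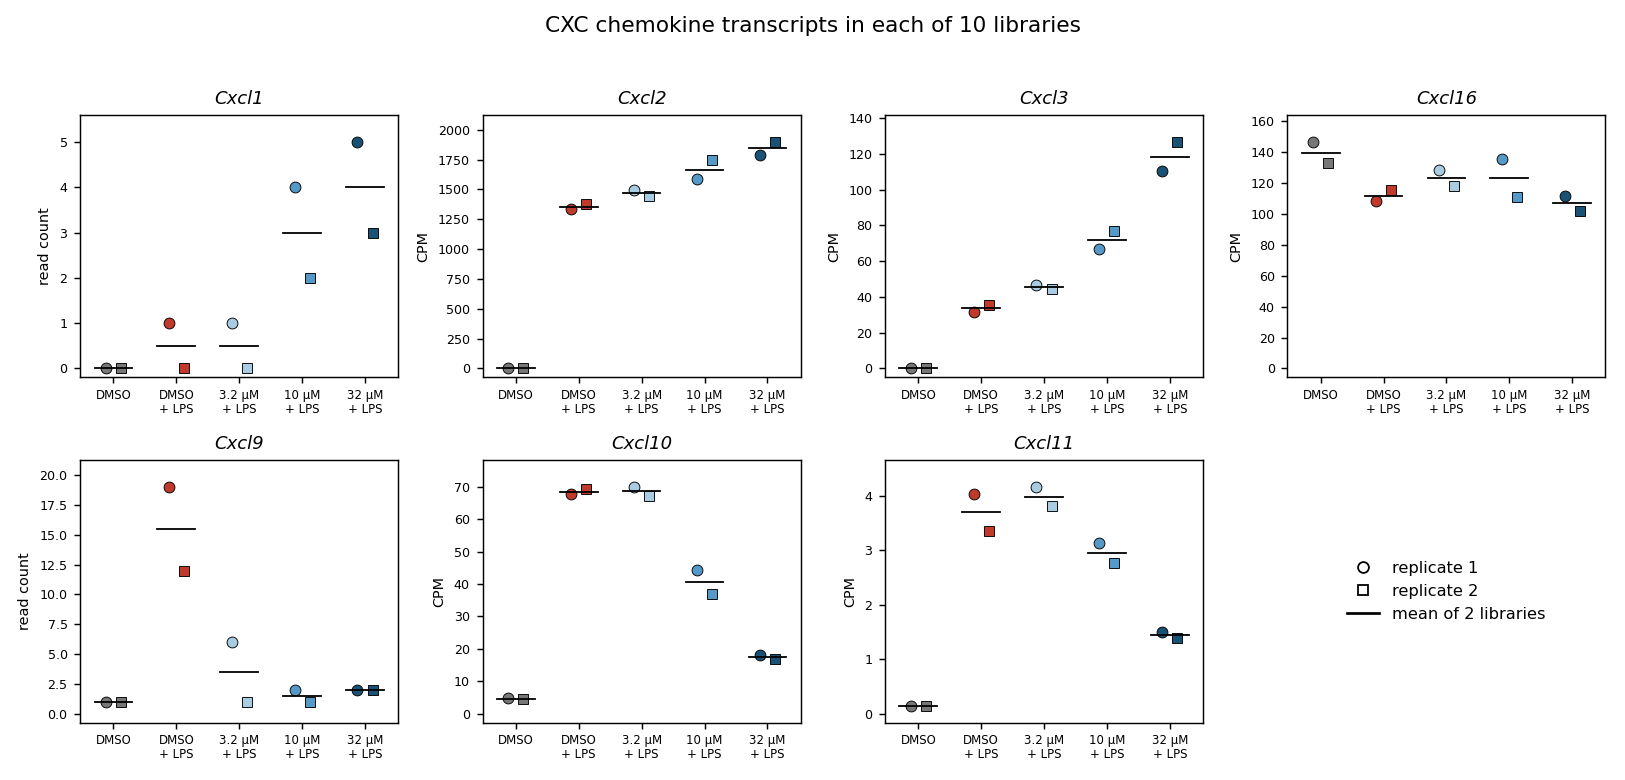
Each panel gives 1 CXC chemokine gene, with the 5 conditions on the horizontal axis and the level in each library on the vertical axis, in CPM or, for Cxcl1 and Cxcl9, in reads. Circles are replicate 1, squares replicate 2 and bars the mean of both. Cxcl3 climbs from 31.8 and 35.5 CPM in DMSO + LPS to 110.3 and 127 at 32 µM, Cxcl10 falls from 67.7 and 69.3 to 18.2 and 16.7, and Cxcl16 stays between 102 and 147 in all 10 libraries.

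Cxcl2, also known as MIP-2, had the largest LPS change that could be measured from reads in both groups. It was read at 1.63 and 1.06 CPM in DMSO and at 1334 and 1379 CPM in DMSO + LPS. The log2 fold change was 9.97 (SE 0.186, edgeR adjusted p = 7.16e-09), with both LPS libraries far above both controls.
With compound 1 and LPS, Cxcl2 stood at 1492 and 1444 CPM at 3.2 µM, at 1584 and 1747 CPM at 10 µM and at 1792 and 1898 CPM at 32 µM. All 6 libraries with the compound lay above both DMSO + LPS libraries, and the group means were 108%, 123% and 136% of the DMSO + LPS mean. None of the 3 doses was called, and all 3 changes were under the 1.5-fold criterion. At 32 µM the log2 fold change was 0.44 (95% interval 0.16 to 0.73, adjusted p = 0.0634), at 10 µM it was 0.30 (0.014 to 0.58, adjusted p = 0.386) and at 3.2 µM it was 0.11 (−0.17 to 0.40, adjusted p = 0.999).
A linear contrast over the 4 ordered LPS conditions gives the change per dose step, in the same edgeR fit and called at an adjusted p below 0.05. For Cxcl2 it was 0.15 on the log2 scale (adjusted p = 0.0442), which passed. The trend for Cxcl2 was no longer called without either DMSO + LPS library (adjusted p = 0.237 and 0.193), either 3.2 µM library (0.110 and 0.119), either 32 µM library (0.0724 and 0.139) or replicate 2 at 10 µM (0.0702). Over its 16 alternatives the adjusted p ran from 2.18e-08 to 0.237.

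Cxcl3, the closest relative of Cxcl2 in this set and also a CXCR2 ligand, was the one member called higher both with LPS and at 10 and 32 µM of the compound against DMSO + LPS. It had 0 reads in both DMSO libraries, where 3 reads would be 0.0510 and 0.0528 CPM. In DMSO + LPS it stood at 31.8 and 35.5 CPM, and their mean was at least 637-fold higher than the larger of these floors. Cxcl3 passed the filter on low counts only through the LPS conditions, so its LPS value (edgeR adjusted p = 7.20e-08) is a description.
Under the compound Cxcl3 was read at 46.6 and 44.7 CPM at 3.2 µM, at 66.7 and 77.1 CPM at 10 µM and at 110.3 and 127 CPM at 32 µM. No 2 neighboring doses overlapped. The means were 136%, 214% and 352% of the DMSO + LPS mean, which was 33.7 ± 2.58 CPM (SD, n = 2).
At 32 µM the log2 fold change against DMSO + LPS was 1.82 (SE 0.103, adjusted p = 7.28e-05). At 10 µM it was 1.10 (SE 0.102, adjusted p = 0.00353), and this call did not hold when replicate 1 of DMSO + LPS was left out (adjusted p = 0.0552, range over the 16 alternatives 1.01e-17 to 0.0552). At 3.2 µM it was 0.44 (95% interval 0.20 to 0.68, adjusted p = 0.789), which did not pass. The change per dose step was 0.61 (SE 0.0326, adjusted p = 4.65e-05).
Within each library the ratio of Cxcl3 reads to Cxcl2 reads, which needs no scaling between libraries, was 0.0239 and 0.0257 with LPS alone. It was 0.0312 and 0.0309 with 3.2 µM of the compound, 0.0421 and 0.0441 with 10 µM, and 0.0616 and 0.0667 with 32 µM, so no libraries of neighboring conditions overlapped. The 2 transcripts share an identical stretch of 157 nt, and 3.05% of the 100-nt stretches of Cxcl2 also occur in Cxcl3. No other pair of members shares a stretch of 100 nt. How reads in the shared stretch were counted is not known, and the part of Cxcl2 reads in the Cxcl3 counts was not tested.

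Cxcl1, the third ELR ligand and the mouse KC gene, was close to silent. It had 16 reads over all 10 libraries and did not pass the filter on low counts, so it was not tested. The libraries held 0 and 0 reads for DMSO and 1 and 0 with LPS alone. With the compound they held 1 and 0 reads (3.2 µM), 4 and 2 reads (10 µM), and 5 and 3 reads (32 µM). Every library at 10 and 32 µM had more reads than every other library, at counts of 5 or fewer. The 4 reads at 10 µM came from the library with epithelial reads, and their part there was not tested.

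Cxcl10, known as IP-10, had the smallest adjusted p of the members at 32 µM against DMSO + LPS. It was present without LPS at 4.76 and 4.46 CPM and reached 67.7 and 69.3 CPM with LPS. The log2 fold change was 3.89 (SE 0.101, adjusted p = 3.51e-08).
With compound 1 it stood at 69.9 and 67.3 CPM at 3.2 µM, at 44.3 and 37.0 CPM at 10 µM and at 18.2 and 16.7 CPM at 32 µM. The 3.2 µM libraries overlapped with DMSO + LPS, and the libraries of the other doses lay below both and apart from each other. The means were 100.1%, 59.4% and 25.5% of the DMSO + LPS mean of 68.5 ± 1.15 CPM (SD, n = 2).
At 32 µM the log2 fold change was −1.97 (SE 0.0912, adjusted p = 8.73e-06). At 10 µM it was −0.75 (SE 0.0875, adjusted p = 0.00478), which was no longer called without replicate 1 or replicate 2 of DMSO + LPS (adjusted p = 0.0549 and 0.0576, range over the 16 alternatives 3.79e-11 to 0.0576). At 3.2 µM the estimate was 0.0019 (95% interval −0.20 to 0.20). The change per dose step was −0.67 (SE 0.0288, adjusted p = 5.53e-06).
The calls at 32 µM held without replicate 2 at that dose, the library with the high Gm42418 share, where the log2 fold changes were 1.71 for Cxcl3 (adjusted p = 5.60e-04), −1.92 for Cxcl10 (1.93e-04) and −1.31 for Cxcl11 (0.00972). Without the 10 µM library that carries epithelial reads, the 10 µM values were 1.20 for Cxcl3 (adjusted p = 0.00627) and −0.89 for Cxcl10 (0.00369), both still called. The trends of Cxcl3, Cxcl10 and Cxcl11 were called without each of the 3 libraries that stood apart, with changes per dose step of 0.58 to 0.62, −0.68 to −0.65 and −0.46 to −0.44. At 3.2 µM, Cxcl2 was at 0.09 and Cxcl3 at 0.41 without replicate 1 of that dose, neither called.
The summed macrophage marker level was lower alongside, and 3 of its 8 genes, Fcgr1, Itgam and Lyz2, were called lower at 32 µM, with 0 called higher, beside 2.91% and 1.26% of all genes. At 10 µM Fcgr1 alone of the 8 was called lower (−0.68, adjusted p = 0.00875), beside 0.579% of all genes, also without each of the 3 libraries that stood apart. The Lyz2 call was lost without replicate 2 at 32 µM (−0.55, adjusted p = 0.0206, under the 1.5-fold criterion). Csf1r stood at 132% and Cd68 at 107% of their DMSO + LPS means at this dose, neither called. The summed level of 3 neutrophil markers was 0.581 to 1.05 CPM in DMSO, 6.56 to 6.69 with LPS alone, 6.49 to 7.33 for 3.2 µM, 2.94 to 6.47 for 10 µM and 1.66 to 2.59 for 32 µM, nearly all of it S100a8, while Ly6g had at most 5 reads outside the 10 µM library with epithelial reads. The cells were of 1 macrophage line, so both lists are read as transcript levels and not as counts of cell types. The part of either list in the lower Cxcl10 and Cxcl11 was not tested. In bulk RNA, fewer cells with a transcript and less of it per cell cannot be told apart.

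Cxcl11, called I-TAC, followed Cxcl10 at a lower level. Its libraries held 8 and 8 reads for DMSO and 231 and 158 with LPS alone. With the compound they held 193 and 191 reads (3.2 µM), 146 and 125 reads (10 µM), and 73 and 63 reads (32 µM). In CPM these were 0.136 and 0.141, then 4.03 and 3.36, 4.16 and 3.81, 3.14 and 2.76, and 1.49 and 1.39. Cxcl11 passed the filter on low counts only through the LPS conditions. Its LPS change of 4.72 on the log2 scale (SE 0.194, edgeR adjusted p = 4.18e-07) is therefore a description. The libraries at 10 and 32 µM lay below both DMSO + LPS libraries.
At 32 µM the log2 fold change was −1.36 (SE 0.153, adjusted p = 9.41e-04), a mean of 39.0% of that in DMSO + LPS. At 10 µM it was −0.33 (95% interval −0.67 to 0.014, adjusted p = 0.442) and at 3.2 µM 0.11 (−0.23 to 0.44), neither called. The change per dose step was −0.45 (SE 0.0481, adjusted p = 6.33e-04). Within libraries the ratio of Cxcl11 to Cxcl10 reads was 0.0596 and 0.0486 in DMSO + LPS and 0.0821 and 0.0833 at 32 µM, higher in both libraries with the compound. This difference of the ratios was not tested.

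Cxcl9, known as MIG, was at the edge of detection. It had 1 read in each DMSO library and 19 and 12 reads with LPS alone. With the compound it had 6 and 1 reads (3.2 µM), 2 and 1 reads (10 µM), and 2 and 2 reads (32 µM). It passed the filter on low counts only through the DMSO + LPS libraries, so a lower value elsewhere is partly set by that filter. Both DMSO + LPS libraries were above all others.
From summed reads, DMSO + LPS stood 17.2 times above DMSO (95% exact interval 4.37 to 148), 32 µM at 0.143 times DMSO + LPS (0.0366 to 0.404), 10 µM at 0.110 times (0.0215 to 0.352) and 3.2 µM at 0.244 times (0.0907 to 0.565). These intervals cover counting error only. For the same reason the LPS value, a log2 fold change of 3.91 (edgeR adjusted p = 0.00488), is given as a description. It was no longer called without replicate 1 or replicate 2 of DMSO (adjusted p = 0.0551 and 0.0559, range over the 16 alternatives 0.00368 to 0.0559).
Against DMSO + LPS the log2 fold changes were −2.72 at 32 µM (95% interval −4.48 to −0.97, adjusted p = 0.0657), −3.08 at 10 µM (−4.92 to −1.24, adjusted p = 0.116) and −1.97 at 3.2 µM (−3.58 to −0.36, adjusted p = 0.999), none called. Over the alternatives the adjusted p ran from 0.0218 to 0.368 at 32 µM and from 0.0271 to 0.631 at 10 µM. Of the 7 reads at 3.2 µM, 6 came from the replicate with the smaller load of epithelial reads, and without it the log2 fold change was −3.72.

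Cxcl16 had the smallest change of the tested members with LPS and at 10 and 32 µM. Its level was 147 and 133 CPM for DMSO and 108 and 116 CPM with LPS alone. With the compound it was 129 and 118 CPM (3.2 µM), 135 and 111 CPM (10 µM), and 112 and 102 CPM (32 µM). Both DMSO + LPS libraries lay below both DMSO libraries, and the groups at 10 and 32 µM overlapped with DMSO + LPS.
The LPS change was −0.32 on the log2 scale (SE 0.103, adjusted p = 0.0320), below the 1.5-fold criterion. It was −0.53 when scaled by library size alone, against the shift of −0.20 in the median of all genes. Against DMSO + LPS the log2 fold change was −0.07 at 32 µM (95% interval −0.31 to 0.17), 0.14 at 10 µM (−0.10 to 0.38) and 0.14 at 3.2 µM (−0.097 to 0.38). Without the 10 µM library that carries epithelial reads the 10 µM value was −0.012. The intervals at all 3 doses exclude a change of 1.5-fold.

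**Figure D3:**
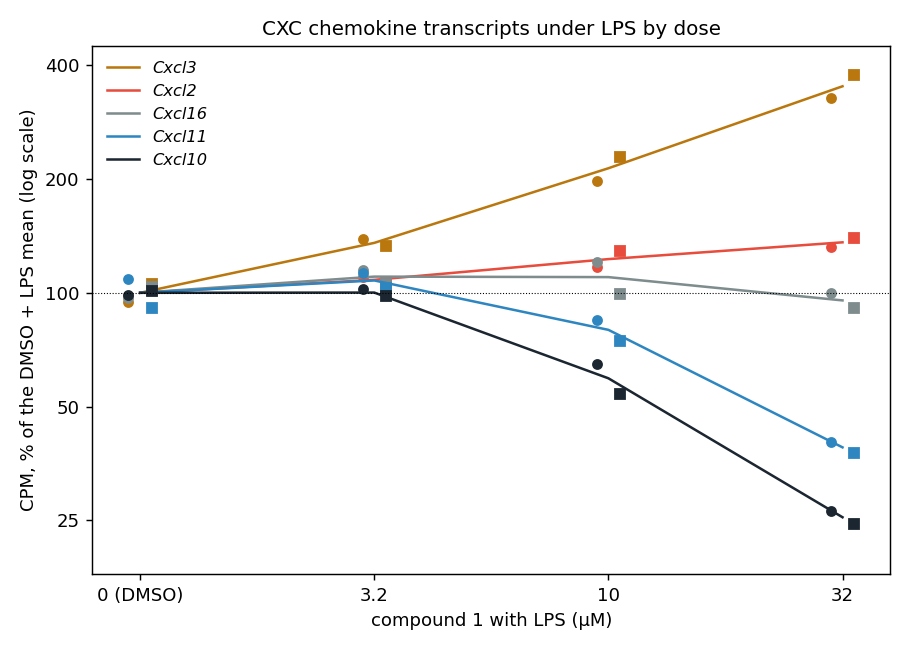
CPM under LPS as a percent of the DMSO + LPS mean (vertical axis, log scale) in the 4 LPS conditions (horizontal axis, evenly spaced, µM of compound 1), for the 5 members above 1 CPM with LPS. Circles are replicate 1, squares replicate 2 and lines join the means. At 32 µM the means fan out from 352% for Cxcl3 and 136% for Cxcl2 to 39.0% for Cxcl11 and 25.5% for Cxcl10, with Cxcl16 at 95.5%.

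Steps between neighboring doses were also tested. From 10 to 32 µM, 1 member was called higher and 2 lower, against 0.169% and 1.15% of all genes. Cxcl3 rose by a log2 fold change of 0.72 (SE 0.10, adjusted p = 0.0133), and Cxcl10 fell by 1.22 (SE 0.0902, adjusted p = 3.39e-04). Cxcl11 fell by 1.03 (SE 0.153, adjusted p = 0.0112).
The Cxcl3 call between these doses was lost without the 10 µM library that carries epithelial reads (log2 fold change 0.62) and without replicate 2 at 32 µM (0.62). The Cxcl11 call was lost without the same 2 libraries (−0.94 and −0.98) or replicate 1 at 32 µM (−1.08). These changes all stayed over 1.5-fold and missed the adjusted p. The Cxcl10 call was kept in all 16 alternatives.
From 3.2 to 10 µM, 1 member was called higher and 1 lower, against 0.0706% and 0.183% of all genes. These were Cxcl3 (0.66, adjusted p = 0.0468) and Cxcl10 (−0.75, adjusted p = 0.0114). The Cxcl3 call was lost in 11 of 16 alternatives, among them leaving out each of the 10 libraries (adjusted p of 0.0570 to 0.468) and DESeq2's size factors (0.0504), over a range of 4.12e-06 to 0.468. The Cxcl10 call was lost without either 3.2 µM library (0.157 and 0.137), over a range of 9.98e-11 to 0.157. Cxcl11 had a log2 fold change of −0.43 here (95% interval −0.77 to −0.093, adjusted p = 0.402).

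Over the whole dose series, 2 members, Cxcl2 and Cxcl3, had a called upward trend and 2, Cxcl10 and Cxcl11, a called downward trend. Over all genes 4.86% and 6.28% were called, also on the adjusted p alone. The Cxcl2 trend was lost in 7 of 16 alternatives, and those of Cxcl3, Cxcl10 and Cxcl11 were kept in all 16. Cxcl9 had a slope of −0.93 per dose step (adjusted p = 0.0505) and Cxcl16 of −0.02 (adjusted p = 0.807). Both slopes missed the threshold, and that of Cxcl9 passed it in 2 of its alternatives.

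The 32 µM cells were also set against DMSO cells, to place the LPS-treated cells with the compound beside cells without LPS. Here 4 of the 6 tested members were called higher and 0 lower, beside 13.8% and 13.3% of all genes, and the same limit on Cxcl3 and Cxcl11 applies. Scaling by library size alone gave 1488 higher of 4280 genes called against 1960 of 3840. Cxcl2 was 10.42 higher on the log2 scale (SE 0.188, adjusted p = 7.77e-09) and the mean of Cxcl3 was at least 2242-fold higher than the larger DMSO floor. Cxcl10 remained 1.92 above DMSO (SE 0.0977, adjusted p = 1.63e-06), so it was not back at its level without LPS. Cxcl11 was 3.36 above DMSO (SE 0.198, adjusted p = 3.73e-06), which under that limit is a description. Cxcl9 was not called (1.18, 95% interval −1.27 to 3.64, adjusted p = 0.396). Cxcl16 was −0.39 (adjusted p = 0.0148), under the 1.5-fold criterion, and −0.59, and called, when scaled by library size alone.

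**Figure D4:**
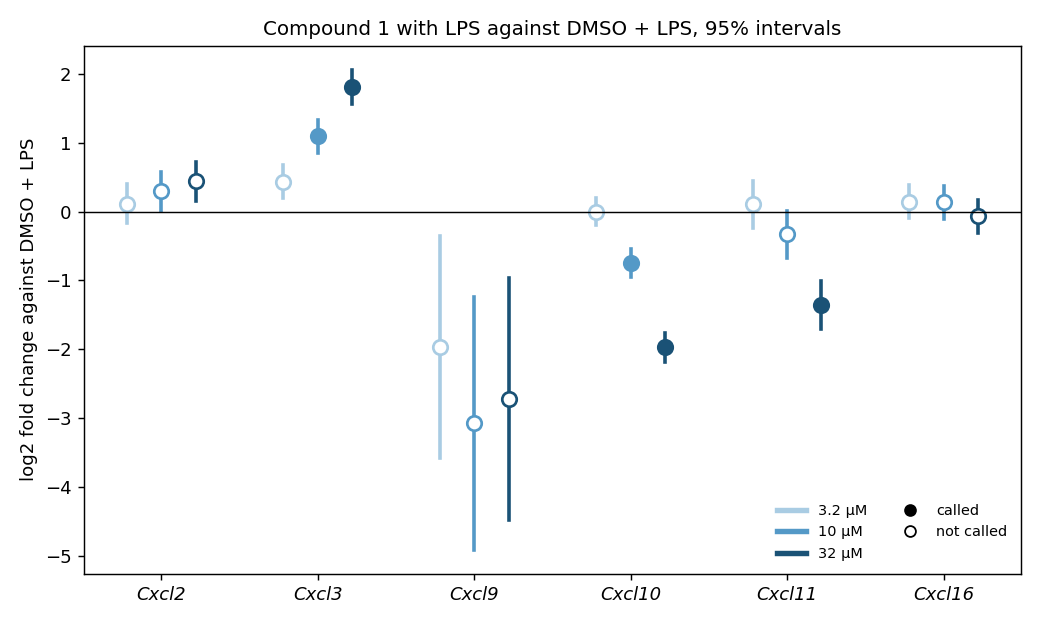
Log2 fold changes against DMSO + LPS (vertical axis) with 95% intervals for the 6 tested CXC chemokine genes at 3 doses of compound 1 with LPS. Filled points were called. Cxcl3 reaches 1.82 and Cxcl10 −1.97 at 32 µM, while Cxcl9, with 19 or fewer reads in each library, has the widest intervals.

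Of the receptors tested, Cxcr4 alone was called with the compound against DMSO + LPS. Of 8 receptor genes listed, 4 had enough reads to be tested (Cxcr3, Cxcr4, Cxcr5 and Cxcr6). Cxcr1 and Cxcr2, which bind the ELR ligands, had at most 0.022 and 0.064 CPM. With LPS, 2 receptors were called higher and 1 lower, where over all genes 14.6% and 13.6% were, and at 32 µM 1 was called higher and 0 lower, beside 1.26% and 2.91%.
Cxcr4, the receptor of CXCL12, was at 47.1 and 42.6 CPM in DMSO and fell to 1.76 and 1.85 CPM with LPS alone, a change of −4.63 on the log2 scale (SE 0.0986, adjusted p = 1.36e-08). With the compound it was at 2.33 and 2.59 CPM (3.2 µM), 3.42 and 3.49 CPM (10 µM), and 5.70 and 5.24 CPM (32 µM). No 2 LPS conditions overlapped.
Against DMSO + LPS, Cxcr4 was higher by 1.60 at 32 µM (SE 0.0961, adjusted p = 3.21e-05) and by 0.94 at 10 µM (adjusted p = 0.00340), and the 3.2 µM value of 0.45 was not called (adjusted p = 0.722). Without each of the 3 libraries that stood apart it was called at both doses, at 1.60 to 1.66 and 0.93 to 0.95. Against DMSO the 32 µM value was still −3.03 on the log2 scale.
Cxcr3, the receptor of CXCL9, CXCL10 and CXCL11, was at 12.3 and 11.7 CPM in DMSO and at 7.53 and 8.64 CPM in DMSO + LPS. Its LPS change of −0.57 (adjusted p = 0.00314) was under the 1.5-fold criterion, and at 32 µM it differed from DMSO + LPS by −0.06 (95% interval −0.32 to 0.20). Cxcr5, the receptor of CXCL13, rose with LPS by 1.22 (adjusted p = 9.18e-06) and was at −0.03 at 32 µM (−0.22 to 0.17). Cxcr6, the CXCL16 receptor, was under 1 CPM throughout, with 4 and 7 reads in DMSO and 32 and 39 in DMSO + LPS. It passed the filter only through the LPS conditions, so its LPS change of 2.83 (adjusted p = 0.00106), one of the 2 calls, is a description. At 32 µM it was at −0.32 (−1.22 to 0.58).

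Of 8 other CXC ligands listed, 3 were tested, and at 32 µM 1 was called higher and 0 lower (1.26% and 2.91% of all genes). With LPS 2 were called higher and 1 lower (14.6% and 13.6% of all genes), and of the 2 Ppbp, with 0 and 3 reads in DMSO, passed the filter only through the LPS conditions. The gene called at 32 µM was Pf4, or platelet factor 4, a ligand without the ELR residues. It was at 2.87 and 2.20 CPM for DMSO and 3.58 and 4.26 CPM with LPS alone. With the compound it was at 5.41 and 4.81 CPM (3.2 µM), 6.88 and 6.06 CPM (10 µM), and 11.1 and 8.93 CPM (32 µM). No library with the compound lay below a DMSO + LPS library. The log2 fold change at 32 µM was 1.36 (SE 0.173, adjusted p = 0.00190), and at 10 µM it was 0.72 (adjusted p = 0.0901), not called. The 32 µM call held without each of the 3 libraries that stood apart (at least 1.35).
Cxcl12, a stromal ligand, was read only in the 10 µM library with epithelial reads, at 0.387 CPM, and Cxcl5 was highest in the same library, at 0.344 CPM.
Of the 3 genes of CXCL16 release, Adam10 was called lower with LPS (−1.08, adjusted p = 9.55e-05) and Rhbdf2 higher (1.42, adjusted p = 3.40e-07), beside 13.6% of all genes lower and 14.6% higher. None of the 3 was called against DMSO + LPS at 3.2, 10 or 32 µM, where 0%, 0.282% and 1.26% of all genes were called higher and 0%, 0.579% and 2.91% lower. At 32 µM their log2 fold changes were 0.20 for Adam10, 0.01 for Adam17 and −0.15 for Rhbdf2, which helps ADAM17 reach the cell surface.

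**Figure D5:**
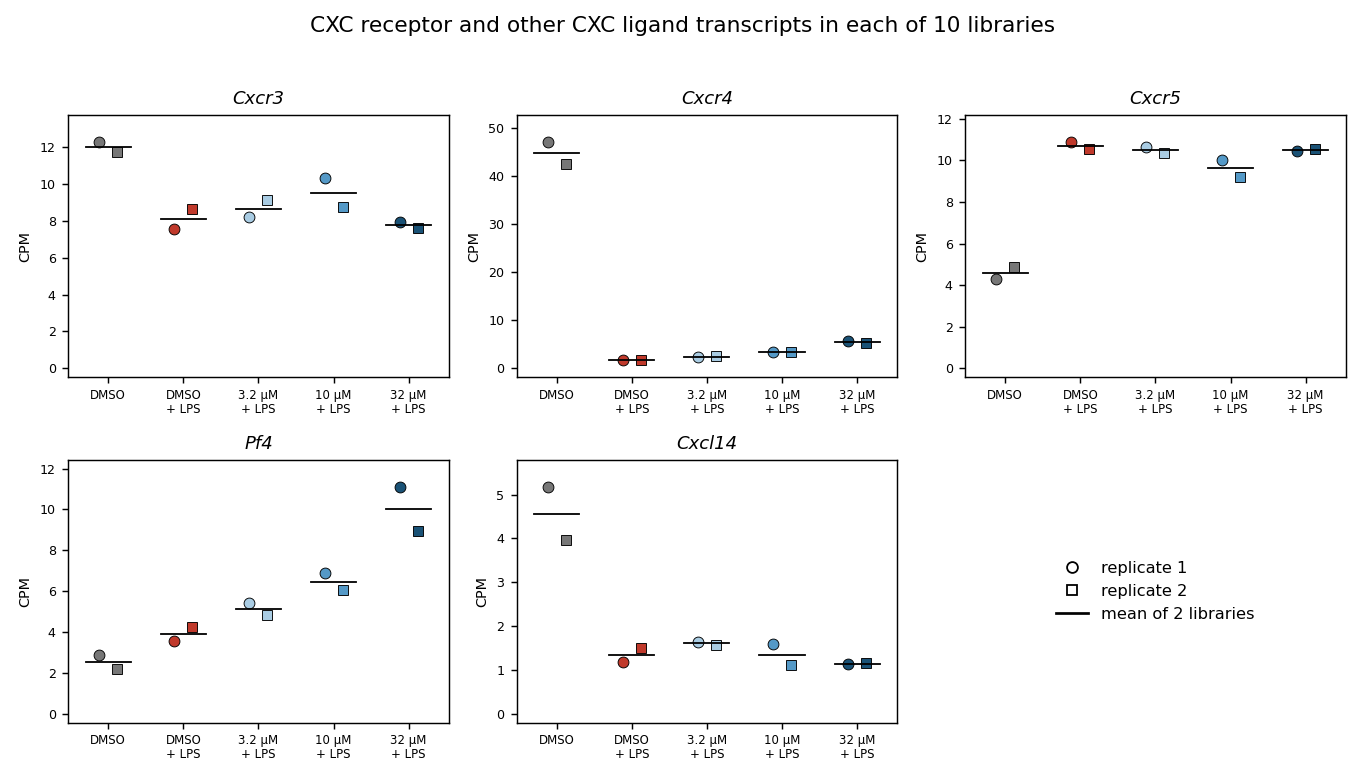
CPM in each library (vertical axes) of 3 receptor genes and 2 other CXC ligands in the 5 conditions. Circles are replicate 1, squares replicate 2 and bars the mean of both. Cxcr4 falls from 47.1 and 42.6 CPM in DMSO to 1.76 and 1.85 in DMSO + LPS and reaches 5.70 and 5.24 at 32 µM, and Pf4 climbs to 11.1 and 8.93 at 32 µM.

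Genes of the pathways that control these ligands were counted from fixed lists. Over all genes 14.6% were called higher and 13.6% lower with LPS, and 1.26% and 2.91% at 32 µM. In the NF-κB list of 12 genes, which holds NF-κB subunits, their inhibitors and cofactors, Tnfaip3 and the C/EBP factor gene Cebpb, 11 were called higher and 0 lower with LPS (median log2 fold change 1.95, against 0.0026 over all genes). At 32 µM, 0 were called higher and 2 lower against DMSO + LPS, with a median of −0.18 against 0.0082 over all genes. The 2 were Nfkbiz, an inducible nuclear cofactor of NF-κB (−0.68, adjusted p = 9.41e-04), and Tnfaip3, the deubiquitinase A20 that limits NF-κB signaling (−0.59, adjusted p = 2.39e-04). Both calls held without each of the 3 libraries that stood apart, as did those of the interferon list at 32 µM.
In the interferon list of 12 genes, 6 were called higher and 0 lower with LPS (median 0.66), with Ifnb1 passing the filter only through LPS conditions, and at 32 µM 0 were called higher and 4 lower (median −0.28). The 3 with the largest change were Ifnb1, the interferon-β gene (−2.21, adjusted p = 0.00241), Irf7, an interferon-induced regulator of interferon genes (−1.48, adjusted p = 5.83e-06), and Stat2, a subunit of the complex that binds the ISRE (−1.45, adjusted p = 3.09e-06). At 10 µM 1 of the list, Stat2, was called lower (−0.65, adjusted p = 9.66e-04), against 0.579% of all genes, and 2, Irf7 and Stat2, without the library with epithelial reads.
In the list of 8 genes for mRNA decay and stability, which includes Zfp36, a protein that destabilizes chemokine transcripts, 3 were called higher and 1 lower with LPS. At 32 µM 1 was called higher and 0 lower (median −0.12), and that gene was Zfp36l2 (0.64, adjusted p = 0.00529). It was no longer called without replicate 2 at 32 µM (0.52, adjusted p = 0.0367, under the 1.5-fold criterion).

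For each member with a mean of at least 5 CPM, the 3 genes with the most similar level were found among 9561 tested genes, by Pearson's r of log2 CPM across the 10 libraries. For Cxcl10 they were Tor3a, Ube2l6 and Dhx58, with r of 0.9995, 0.9993 and 0.998 over 10 libraries and 0.998, 0.999 and 0.997 over the 8 LPS libraries. Dhx58 stood at 31.6 CPM in DMSO, 158.7 in DMSO + LPS and 66.2 at 32 µM on average, a rise and partial fall like that of Cxcl10.
For Cxcl3 they were Serpinb9, Acsbg1 and Procr, with r of 0.999 for each over 10 libraries and 0.980, 0.955 and 0.947 over the LPS libraries. Procr stood at 16.2 CPM in DMSO, 371 in DMSO + LPS and 576 at 32 µM.
For Cxcl2 they were ENSMUSG00000089672, Mmp12 and Fosl1, with r of at least 0.999 over 10 libraries and 0.803, 0.814 and 0.863 over the LPS libraries. For Cxcl16 they were Prdx4, Fxyd5 and Mrpl2, with r of 0.972, 0.968 and 0.967 over 10 libraries and 0.944, 0.968 and 0.947 over the LPS libraries. All points share the libraries and their scaling, and r over 10 libraries spans the step between DMSO and LPS.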

How the data were processed

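RNA of RAW264.7 cells was measured in 10 libraries. Per the paper's methods the authors made poly(A)-selected, directional libraries and sequenced paired 150-cycle reads on 1 lane. The authors deposited raw read counts per mouse Ensembl gene without normalization. The submitters' processing notes name Trimmomatic, FastQC, STAR and DESeq2, with no versions, and the build mm10; the counting tool, its use of the strand and the annotation are not given in the sources used here. Of 43432 genes, 42548 identifiers matched a symbol in GENCODE M21, and the others held 0.0948% of the counts.

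The filterByExpr step of edgeR 4.0.16, set to at least 10 counts, left 14172 genes. TMM factors scaled the libraries, and the fit (R 4.3.3, limma 3.58.1) gave each condition 1 mean over all 10 libraries, leaving 5 residual degrees of freedom (common biological coefficient of variation 0.128, prior degrees of freedom 2.76). A call needed a 1.5-fold change and a Benjamini-Hochberg adjusted p below 0.05 over all genes tested, and the linear dose contrast the adjusted p alone. All tests were two-sided. Intervals are 95%. A count of 0 was set to a floor of 3 counts per library for a lower bound of a fold, and intervals and floors from counts cover counting error only. The smallest library had 45966803 counts, where 3 counts are 0.0664 CPM.

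All members were named. From the lists (other CXC ligands, CXC receptors, CXCL16 shedding, NF-κB, interferon and mRNA decay genes) the Cxcr receptors and up to 3 genes with the largest change among those called at 32 µM were named, with Cxcl5, Cxcl12, Dhx58, Procr, Zfp36 and genes of list counts of 3 or fewer added after their values were seen. The members and lists were chosen with earlier results of these data known. Promoters are RefSeq's, and motifs were searched on both strands, TATAAA on the given strand only. Protein features were not analysed here.

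The 16 alternatives were library size alone, DESeq2's size factors, all genes without the count filter, the replicate number in the fit, a short-transcript score in the fit (each library's deviation over 1425 genes with transcripts under 1000 nt), DESeq2 1.42.0's Wald test, and leaving out each of the 10 libraries. The steps were tested on simulated data. Replicates differed by more than counting noise in every condition, so no library was a duplicate.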

Additional observations from a re-analysis of the deposited data

How the results depend on the processing

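Calls for Cxcl3, Cxcl10 and Cxcl11 at 32 µM against DMSO + LPS, and for Cxcl2 and Cxcl10 with LPS, held in all 16 alternatives. The LPS calls of Cxcl3 and Cxcl11 were also kept in all 16. Both genes passed the filter on low counts only through the LPS conditions, so these LPS calls are descriptions. Of the log2 fold changes of members under the alternatives, 710 kept their direction and side of the threshold, 30 lost the call, 6 gained it and 17 changed sign. The lone library left in a condition is assumed to vary like the others. Fewer libraries enter those fits; otherwise the cause was not tested. Depth limits Cxcl1 and Cxcl9.

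With 1 library left out, between 0 and 2 members were called at 10 µM against DMSO + LPS (0 and 1 without replicate 1 and 2 of DMSO + LPS), between 1 and 3 for 32 against 10 µM, and between 0 and 1 for 10 against 3.2 µM, where DESeq2's size factors gave 1. Adding the replicate number as a block called 4 members at 32 µM, 5 in the trend and 5 with LPS. The added member was Cxcl9 (adjusted p = 0.0489 at 32 µM and 0.0394 in the trend), which the short-transcript score also called, at 0.0218 and 0.0191, and at 10 µM at 0.0271. Cxcl9 entered the test only through DMSO + LPS, so these calls support nothing. Replicate differences of DMSO + LPS correlated with those of each other condition at −0.42 to −0.17. Among the other conditions they correlated at 0.30 to 0.83. As the signs differed, the numbers were not taken as pairs.

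The sign of 17 values changed. For Cxcl10 at 3.2 µM these were −0.0059 (library size alone), −0.0015 (DESeq2's size factors), −0.012 (no filter), −0.055 (short-transcript score), −4.39e-04 (DESeq2), and −0.010, −0.015, −0.024 and −0.0094 without DMSO replicate 2, DMSO + LPS replicate 1, 3.2 µM replicate 1 and 10 µM replicate 2, up to 0.028 without 3.2 µM replicate 2. Leaving out 1 library, Cxcl11 at 3.2 µM ran from −0.017 (without DMSO + LPS replicate 2) to 0.25, and Cxcl16 at 10 µM from −0.012 (without replicate 1 there) to 0.25. Cxcl9 ran from −0.0085 (without 10 µM replicate 2) to 0.87 for 32 against 10 µM, and from −1.91 to 0.64 (without 3.2 µM replicate 1) for 10 against 3.2 µM. Cxcl16 for 10 against 3.2 µM was 0.014 (library size alone), 0.032 (short-transcript score), 0.055 without 3.2 µM replicate 1 and 0.12 without 10 µM replicate 2, down to −0.16 without 10 µM replicate 1.

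Counts over all genes moved by more than 1.5 times in these cases. At 10 µM, 122 became 230 with the short-transcript score, 52 and 59 without either DMSO + LPS library and 227 without 10 µM replicate 2. At 3.2 µM, 0 became 1 to 8. For 32 against 10 µM, 187 became 293 with the score. For 10 against 3.2 µM, 36 became 109 with the score, 19 and 19 without either DMSO + LPS library, 6 and 5 without either 3.2 µM library, and 22 and 66 without either 10 µM library. In the trend, 1579 became 3896 with the score, 867 and 880 without either DMSO + LPS library and 1021 without 32 µM replicate 2.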
